A study of Homo sapiens with 10 samples.

Results

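Genes of glycolysis and of the pentose phosphate pathway were followed in human myeloid cell lines exposed to OR21. OR21 is the compound OR-2100, which the series title calls a hypomethylating agent, meaning a drug that lowers DNA methylation. The 31 genes were chosen by symbol from a list of hexokinases, glycolytic and pentose phosphate enzymes, glucose and lactate carriers and enzymes that set the flow between them. A named probe set was found for 28 of the 31. The lactate carriers SLC16A1 and SLC16A3 and the regulatory enzyme PFKFB4 had none and were not analysed here. The 28 were read among 17687 genes on 10 single-colour arrays.

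HL60, an acute myeloid leukaemia line, and K562, a chronic myeloid leukaemia line, were each given 500 nM OR21. MDSL and SKM1, lines from myelodysplastic disease, were given 100 nM. Exposure lasted 96 hours, and each line had 1 untreated control array and 1 treated array. A further pair of arrays held derivatives of HL60 labelled AZA resistant and OR21 resistant, both measured without treatment. HL60 was grown in another medium, with more serum, than MDSL and SKM1, and MDSL also received IL-3, so the effects of medium and of line on genes of glucose use cannot be told apart. Whether any 2 arrays came from separate cultures is not stated in the labels. The cell line was therefore the only replicate, and the p-values measure the spread between lines.

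Glycolysis splits glucose into pyruvate in the cytosol. Glucose enters through carriers, is trapped as glucose 6-phosphate by hexokinases, is committed by phosphofructokinase and is then oxidised to pyruvate, which lactate dehydrogenase can turn into lactate. The pentose phosphate pathway branches off at glucose 6-phosphate and yields NADPH and the ribose used to make nucleotides. MYC and the hypoxia-inducible factor are known activators of many of these genes, through the E-box CACGTG and through hypoxia response elements with the core ACGTG or GCGTG. Leukaemic cells are known for heavy use of glucose, and mature phagocytes for using the pentose phosphate branch to feed the NADPH oxidase.

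The DNA before the transcription start is shown for 4 members, LDHA and PGK1 as glycolytic genes that were lower after OR21 in all 4 lines, and HK2 and HK3 as hexokinases that went opposite ways in MDSL and SKM1. Each run holds the 250 bases upstream of the start on the strand of the gene, from RefSeq on GRCh38.p14, and capitals mark every match, on either strand, to the E-box CACGTG and to the hypoxia core ACGTG or its variant GCGTG. The windows were chr11:18394313-18394562 for LDHA, chrX:78103998-78104247 for PGK1 and chr2:74833877-74834126 for HK2, all on the plus strand, and chr5:176899347-176899596 on the minus strand for HK3.
LDHA: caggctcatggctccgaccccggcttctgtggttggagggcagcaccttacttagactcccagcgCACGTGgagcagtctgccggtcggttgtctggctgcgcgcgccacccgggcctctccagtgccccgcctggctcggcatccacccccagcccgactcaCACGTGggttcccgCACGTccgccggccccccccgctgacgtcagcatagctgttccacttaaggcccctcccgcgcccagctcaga
PGK1: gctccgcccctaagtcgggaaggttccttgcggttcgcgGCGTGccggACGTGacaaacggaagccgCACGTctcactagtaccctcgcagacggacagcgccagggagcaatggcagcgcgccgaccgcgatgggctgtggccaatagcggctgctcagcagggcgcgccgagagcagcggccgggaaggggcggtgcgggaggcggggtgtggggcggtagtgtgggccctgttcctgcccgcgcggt
HK2: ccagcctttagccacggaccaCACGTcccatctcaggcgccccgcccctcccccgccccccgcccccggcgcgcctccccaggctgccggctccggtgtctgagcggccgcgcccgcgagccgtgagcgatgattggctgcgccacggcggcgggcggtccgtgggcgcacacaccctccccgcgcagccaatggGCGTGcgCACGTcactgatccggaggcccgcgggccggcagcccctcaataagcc
HK3: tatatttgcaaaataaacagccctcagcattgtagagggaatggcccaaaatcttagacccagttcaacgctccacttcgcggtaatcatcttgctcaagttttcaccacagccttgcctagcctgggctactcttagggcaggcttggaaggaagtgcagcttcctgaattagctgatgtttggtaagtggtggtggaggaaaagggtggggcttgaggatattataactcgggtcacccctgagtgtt
The LDHA window shown held CACGTG at 2 places, and the window at another LDHA start held no CACGTG. The HK3 window held none of the 3 motifs. The windows of LDHB and TKT, which were also lower after OR21 in all 4 lines, held none of them either. HK3 also had 4 CpG dinucleotides, the site of DNA methylation, against 22 in LDHA, 32 in PGK1 and 34 in HK2. RefSeq starts were found for 29 of the 31 listed genes, with 55 windows between them, and none for SLC2A3 and SLC16A1. CACGTG was present in 10.9% of the 55 windows and in 6.34% of all 35116 windows of this length. ACGTG, which every CACGTG contains, was present in 32.7% against 18.5%. GCGTG was present in 30.9% against 32.2%. Genes with several starts gave several windows, some of them overlapping, so these shares depend on the unit. Counted by gene, CACGTG was in 6 of 29 members and in 2110 of all 27305 genes with a window. ACGTG was in 15 and 5935 of them, and GCGTG in 15 and 9889. The 6 genes with a CACGTG were HK2, in a window at another start, ALDOA, ALDOC, GAPDH, LDHA and PFKFB3. Of these, only HK2 and LDHA were lower after OR21 in all 4 lines. The median number of CpG dinucleotides was 22 in the members' windows and 11 in all windows. These counts describe the letters in the windows, and no binding or methylation was measured.

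The deposited values were intensities, taken here to the log2 scale, so that a difference of 1 is a 2-fold difference. The median gene stood at 6.63 to 7.05 log2. In the hybridisation spikes, controls added before hybridisation, treated HL60 stood apart, at 11.71 log2 against 10.85 to 11.1 for the other 9 arrays. Its polyadenylated spikes stood at 8.06 against 6.86 to 7.51. Mean differences that this array moves most are given with and without HL60. K562 stood apart from the other lines in its lineage markers: the erythroid regulator GATA1 was at 13.14 log2 in the K562 control and at 6.49 to 10.99 in the others, and the myeloid enzyme MPO at 6.23 against 8.62 to 17.08. PTPRC, which codes for the leukocyte antigen CD45, lay between 9.14 and 14.87 on all arrays. Of 12 measured lymphocyte markers, CD3G, CD8A, KLRD1 and MS4A1 were at or under background on all 10 arrays. Others were not: NKG7 lay between 7.52 and 10.82, and CD79A stood at 11.49 in the MDSL control. In treated HL60, 6 of 8 T and NK markers were at least 2-fold higher, among them GNLY at 9.28 against 3.49. The 6 include CD3G and KLRD1, which stayed at or under background.

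Nearly all steps of both pathways were measured well above background in the untreated lines. ALDOA, GAPDH, ENO1, LDHA and LDHB, abundant enzymes of the core pathway, were at or above the 98th percentile of all genes on all 10 arrays. ENO2, the enolase known from neurons, was at or under the background median on all 10 arrays. The controls differed by at least 2-fold between the highest and the lowest line for 19 of 28 members, against 49.2% of all genes, and with 1 array a line this carries no test. Many of these genes have processed pseudogenes, and cross-hybridisation was not examined. Levels of different genes are not compared, because each has its own probe set.

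The hexokinase HK1, the widely expressed isoform of red cells and brain, had the widest range among the controls. Its level was 6.24 log2 in HL60 and 7.32 in MDSL, against 9.38 in SKM1 and 14.73 in K562. The order therefore ran from HL60 to the line with erythroid markers. The neighbouring HL60 and MDSL values differed by about 1 log2 unit, and no replicate shows how far apart 2 arrays of 1 line would lie.

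ALDOC, the aldolase known from brain, followed a like order, with MDSL at 7.55, HL60 at 9.21, SKM1 at 10.5 and K562 at 12.11. SLC2A3, the high-affinity glucose carrier GLUT3, stood at 10.97 in HL60, 11.17 in SKM1, 12.16 in MDSL and 13.87 in K562. SLC2A1, the carrier GLUT1 of red cells, had MDSL at 10.49, HL60 at 10.59, SKM1 at 11.17 and K562 at 12.82. All of these were highest in K562. The opposite held for PKM, which makes pyruvate in the last step of glycolysis: it was lowest in K562, at 13.33, against 14.77 in SKM1, 14.89 in MDSL and 15.57 in HL60. FBP1, which runs the phosphofructokinase step backwards in gluconeogenesis, was above background in the HL60 control alone, at 6.12, and stood at 3.83 in MDSL, 4.9 in SKM1 and 4.2 in K562.

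Some members were nearly level across the untreated lines. GAPDH lay between 17.13 and 17.45, and TALDO1, the transaldolase of the non-oxidative pentose branch, between 13.3 and 13.46. HK2, the inducible hexokinase of proliferating cells, lay between 9.54 and 10.38. LDHA, which favours making lactate, was lower in MDSL, at 14.54, than in the other controls, at 16.49 to 16.73. RPIA, which makes ribose 5-phosphate, was also lower in MDSL, at 8.02 against 10.05 to 10.19.

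The effect of OR21 over the 4 lines was tested with limma, with the line as a block. No member passed an adjusted p of 0.05: 0 of 28, against 0.0396% of all genes, which is 7 genes. The members' adjusted p-values, by limma with Benjamini-Hochberg adjustment over all genes, ran from 0.139 to 0.948. At an unadjusted p under 0.05, limma gave 11 of 28 members, or 39.3%, against 3372 genes, or 19.1%. These were HK2, HK3, GPI, PFKL, PFKP, TPI1, PGK1, ENO1, LDHB, TKT and FBP1. The next paragraphs therefore describe sizes and directions that did not pass the test.

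The direction was shared more often downward than upward. Lower values in all 4 lines were found for 10 of 28 members, against 15.3% of all genes: HK2, GPI, PFKL, PFKP, TPI1, PGK1, ENO1, LDHA, LDHB and TKT. The count includes values near 0, such as HK2 at -0.01 in HL60, LDHA at -0.02 and PFKL at -0.03 in K562 and TPI1 at -0.03 in MDSL, and was 8 under quantile normalization and under scaling to the hybridisation spikes. A higher value in all 4 lines was found for 1 member, FBP1, against 12.2% of all genes. Without HL60, whose treated array stood apart, 11 members were lower in all the other lines, against 20% of genes. Without K562, 12 were lower and 6 were higher, against 24.1% and 19.5% of genes. The median member had a difference of -0.39 in HL60 and -0.05 in MDSL, against -0.42 in SKM1 and -0.34 in K562, and the median gene of -0.05, -0.04, -0.02 and -0.00. Scaling moved these medians: centring each array on its median took the median gene to -0.22 in HL60, -0.17 in SKM1 and -0.14 in K562, and scaling to the hybridisation spikes took it to -0.81 in HL60. The median member in HL60 then stood at -0.56 and -1.15.

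**Figure D1:**
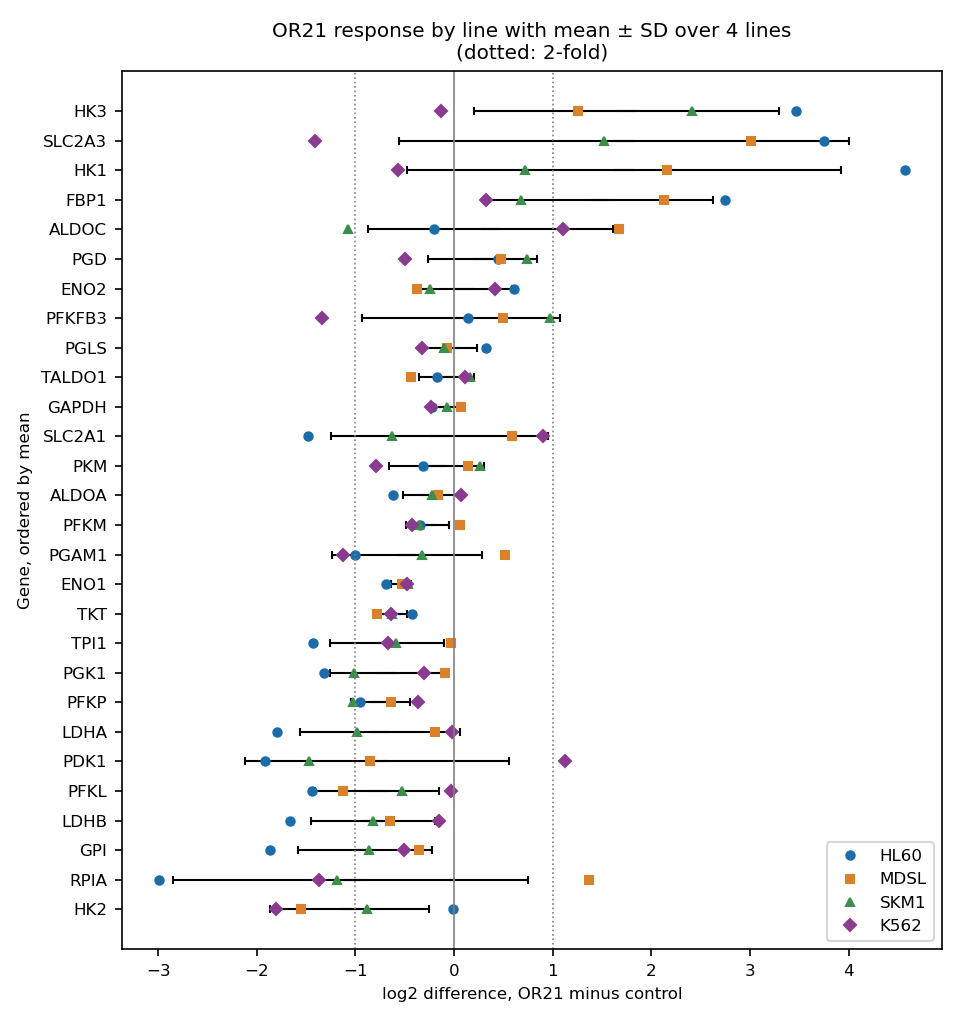
Each row is 1 of the 28 measured genes and each point the log2 difference of OR21-treated minus control cells in 1 line, with black bars for the mean ± SD over the 4 lines and dotted lines at a 2-fold difference. HK3, SLC2A3, HK1 and FBP1 have the highest means, from 1.47 to 1.75, with K562 the lowest point in each, and 20 of the 28 means lie below 0.

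Glucose entry was split between its carriers. SLC2A3 stood at 14.71 in treated HL60 against 10.97 in the control, at 15.16 against 12.16 in MDSL, at 12.69 against 11.17 in SKM1 and at 12.46 against 13.87 in K562. It was thus higher after OR21 in HL60, MDSL and SKM1, by 13.4-, 8.05- and 2.88-fold, and 2.67-fold lower in K562. The mean difference was 1.72 ± 2.28 log2 (SD, n = 4 lines), with a 95% interval from -0.19 to 3.62 and an adjusted p of 0.305 by limma. It was 1.04 ± 2.25 without HL60 and 2.76 ± 1.13 without K562. SLC2A14, whose sequence is nearly identical, differed by 3.37, 2.76, 1.38 and -1.10 in HL60, MDSL, SKM1 and K562, so the 2 probe sets may read the same transcript and the source of the signal is uncertain.

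SLC2A1 split the lines differently. It stood at 9.11 in treated HL60 against 10.59, at 10.55 in SKM1 against 11.17, at 11.09 in MDSL against 10.49 and at 13.72 in K562 against 12.82. The treated value was lower in HL60 and SKM1 and higher in MDSL and K562, with a mean of -0.15 ± 1.10 that turned to 0.29 ± 0.81 without HL60. In K562 the carriers moved apart, with SLC2A1 0.90 higher and SLC2A3 1.41 lower.

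The hexokinases did not move together. HK1 stood at 10.8 in treated HL60 against 6.24, at 9.48 in MDSL against 7.32, at 10.09 in SKM1 against 9.38 and at 14.16 in K562 against 14.73. The 3 lines with lower control levels were thus higher after OR21, HL60 by 23.7-fold, and their treated values lay within 9.48 to 10.8. The mean was 1.72 ± 2.20, with an interval from -0.12 to 3.56 and an adjusted p of 0.292 by limma. Without HL60 it was 0.77 ± 1.37, so the HL60 arrays set much of its size.

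HK3, the hexokinase of myeloid cells, stood at 9.27 in treated HL60 against 5.8, at 7.97 in MDSL against 6.72, at 8.02 in SKM1 against 5.6 and at 5.95 in K562 against 6.08. It was 11.1-fold higher in HL60, 2.39-fold in MDSL and 5.33-fold in SKM1, and the K562 arrays differed by 0.13. The HL60 and SKM1 controls and both K562 values stood little above the background medians of those arrays, 5.41 to 5.42, which limits these differences. The mean of 1.75 ± 1.55 was the highest of the 28, with an interval from 0.43 to 3.08 and an adjusted p of 0.177 by limma. It was 1.18 ± 1.27 without HL60 and 2.38 ± 1.11 without K562.

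Markers of monocytes and granulocytes moved beside HK3, SLC2A3 and HK1. Of 16 measured myelomonocytic markers, at least 2-fold higher values were found for 12 in HL60 and 8 in MDSL, and for 9 in SKM1 and 0 in K562. On the log2 scale, HL60 had a summed marker intensity of 17.95 before and 19.4 after treatment. MDSL had 15.74 and 17.08, SKM1 17.56 and 18.79, and K562 14.34 and 14.09. Such a sum follows its brightest probe sets. LYZ alone stood at 17.71 in the HL60 control, and FCGR2A at 13.92 in the K562 control and 12.93 after treatment. Counted by marker, 12 of 16 were higher in K562 and 4 lower, with a median difference of 0.18. The medians were 3.27 in HL60, 1.17 in MDSL and 2.49 in SKM1. Among the defining markers, CD14 stood at 14.6 in treated HL60 against 7.64, and in the other lines at 5.80 to 6.95 with and without treatment. Other marker lists differed too: 7 of 11 erythroid markers were at least 2-fold higher in K562, ALAS2 at 14.2 against 8.07, and 7 of 11 in MDSL, as were 4 of 7 megakaryocyte markers in MDSL. Of 7 primary granule markers, 6 were lower in HL60, 4 by at least 2-fold. The part of these markers in the results for these genes was not tested. In such bulk RNA, a change in the share of maturing cells and a change in the level per cell cannot be told apart.

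HK2 was lower by 0.88 or more in 3 lines and nearly level in HL60. It stood at 8.82 in treated MDSL against 10.38, at 8.97 in SKM1 against 9.84 and at 7.73 in K562 against 9.54, while HL60 had 9.73 against 9.74. The differences were 2.93-fold, 1.83-fold and 3.51-fold downward, and 0.01 log2 in HL60. The mean was -1.06 ± 0.81, the lowest of the 28, with an interval from -1.83 to -0.30 and an adjusted p of 0.168 by limma. Without HL60 it was -1.41 ± 0.48. HL60, the line with the highest HK1 and HK3 differences, was thus the one without a difference in HK2.

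**Figure D2:**
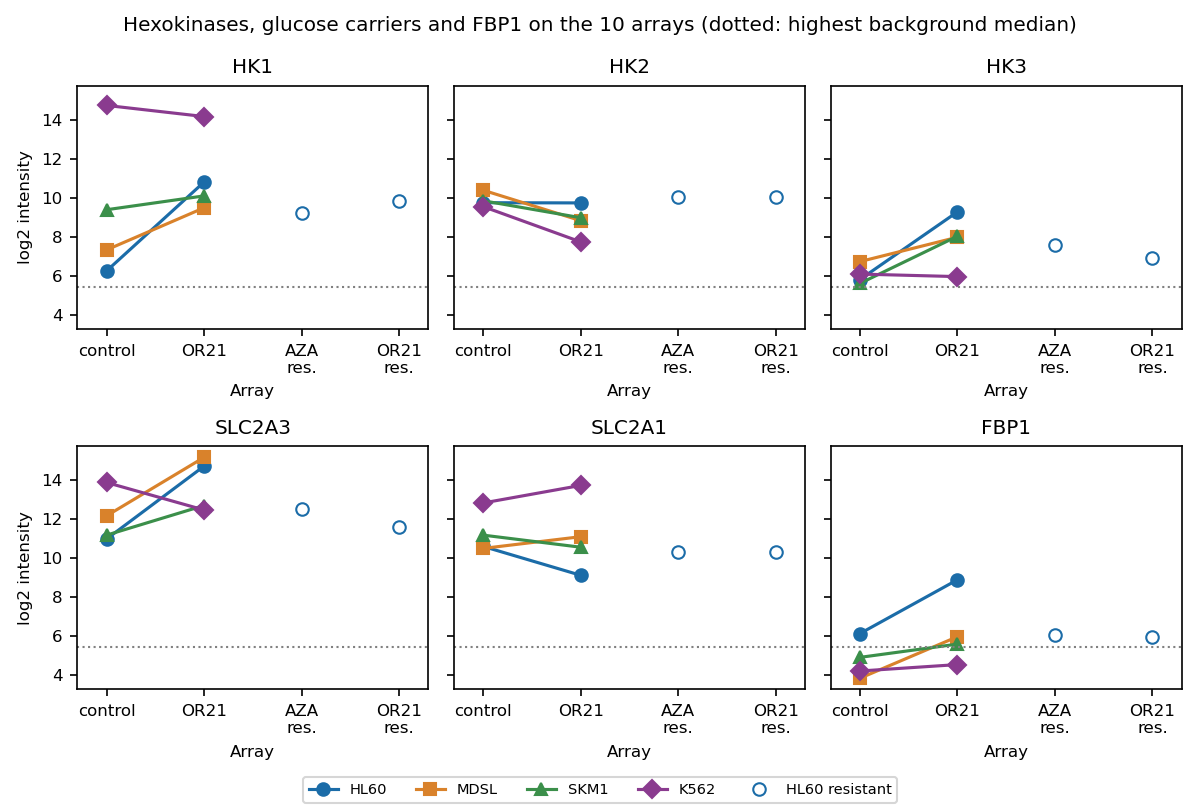
Log2 intensity of 6 genes in untreated and OR21-treated cells of each line, joined by a line, and in the AZA resistant and OR21 resistant HL60 derivatives (open circles), with the highest background median of the 10 arrays dotted. HK3 and SLC2A3 are higher after OR21 in HL60, MDSL and SKM1 and not in K562, HK2 is lower in MDSL, SKM1 and K562, and FBP1 in MDSL, SKM1 and K562 starts under the dotted line.

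The steps from glucose 6-phosphate to the triose phosphates were mostly lower. All 7 measured members of this stretch were lower in HL60 and in SKM1, and 5 of 7 in MDSL and in K562. Of all 17687 genes, 9402 were lower in HL60, 9188 in SKM1, 9425 in MDSL and 8850 in K562. With only 7 genes, read on the same pair of arrays in each line, none of these counts carries a test against the shares of all genes. GPI, which turns glucose 6-phosphate into fructose 6-phosphate, stood at 12.51 in treated HL60 against 14.38, at 12.9 in MDSL against 13.26, at 13.18 in SKM1 against 14.04 and at 12.99 in K562 against 13.5. Treated cells were lower in each line, by 3.66-fold in HL60 and 1.28- to 1.82-fold in the others. Its mean was -0.90 ± 0.68, with an adjusted p of 0.177 by limma, and -0.58 ± 0.26 without HL60.

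The phosphofructokinases differed by isoform in size. PFKL, the liver type, stood at 10.53 in treated HL60 against 11.97, at 11.2 in MDSL against 12.33, at 10.72 in SKM1 against 11.25 and at 10.97 in K562 against 11.01. It was at least 2-fold lower in HL60 and MDSL and level in K562. PFKP, the platelet type, was lower by 0.37 to 1.02 in the 4 lines, at a mean of -0.75 ± 0.30 and with the smallest adjusted p of the members, 0.139 by limma. PFKM, the muscle type, stood at 7.96 in treated HL60 against 8.31, at 8.41 in MDSL against 8.35, at 8.3 in SKM1 against 8.66 and at 9.77 in K562 against 10.2. Its differences were small in each line, from -0.43 to 0.06.

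ALDOC went in both directions. It stood at 9.01 in treated HL60 against 9.21, at 9.22 in MDSL against 7.55, at 9.42 in SKM1 against 10.5 and at 13.21 in K562 against 12.11. MDSL and K562 were more than 2-fold higher and SKM1 more than 2-fold lower, and after treatment all lines but K562 lay within 9.01 to 9.42. ALDOA, the aldolase of most tissues, differed by -0.62 to 0.07. TPI1, which joins both triose phosphates into 1 pool, was 2.7-fold lower in HL60 and 1.02- to 1.59-fold lower in the others.

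From GAPDH to PKM, the median differences of 6 genes were -0.50 in HL60, -0.29 in SKM1 and -0.39 in K562, and -0.01 in MDSL. PGK1, which makes the first ATP of the pathway, stood at 12.73 in treated HL60 against 14.05, at 12.73 in MDSL against 12.82, at 13.1 in SKM1 against 14.11 and at 13.06 in K562 against 13.36. It was 2.49-fold lower in HL60 and 2.02-fold in SKM1, with a mean of -0.68 ± 0.58, and -0.47 ± 0.48 without HL60. GAPDH, often used as a reference gene, differed by -0.23 to 0.07 in the 4 lines.

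ENO1, the widely expressed enolase, was lower in each line by a nearly equal amount, with HL60 at -0.69, MDSL at -0.53, SKM1 at -0.47 and K562 at -0.48. Its mean of -0.54 ± 0.10 had the smallest spread of the 28, and its adjusted p was 0.173 by limma. It gave -0.49 ± 0.03 without HL60. PKM stood at 15.27 in treated HL60 against 15.57, at 15.04 in MDSL against 14.89, at 15.03 in SKM1 against 14.77 and at 12.53 in K562 against 13.33. It was lower in HL60 and K562 and higher in MDSL and SKM1, so its mean of -0.18 ± 0.48 has no common direction. PGAM1, which moves the phosphate before enolase, was 2.19-fold lower in K562, just short of 2-fold lower in HL60 and 1.43-fold higher in MDSL.

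The lactate dehydrogenases were lower in all 4 lines. LDHB, which favours using lactate, stood at 14.62 in treated HL60 against 16.28, at 14.47 in MDSL against 15.12, at 15.04 in SKM1 against 15.86 and at 16.0 in K562 against 16.15. The order of the differences was HL60, SKM1, MDSL, K562, and the mean was -0.82 ± 0.63 with an adjusted p of 0.188 by limma. LDHA was 3.47-fold lower in HL60 and 1.97-fold in SKM1, against 1.14-fold in MDSL and 1.01-fold in K562. Without HL60 the means were -0.54 ± 0.35 for LDHB and -0.40 ± 0.51 for LDHA.

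Among the enzymes that steer pyruvate and fructose phosphates, PDK1 went one way in 3 lines and the other way in K562. PDK1 blocks the entry of pyruvate into the mitochondrial pathway by phosphorylating pyruvate dehydrogenase. It stood at 8.68 in treated HL60 against 10.59, at 10.42 in MDSL against 11.27, at 9.45 in SKM1 against 10.92 and at 12.09 in K562 against 10.96. The first 3 lines were 3.77-, 1.8- and 2.77-fold lower and K562 2.18-fold higher. The mean was -0.78 ± 1.34 over 4 lines, -0.40 ± 1.35 without HL60 and -1.41 ± 0.53 without K562.

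FBP1 had a higher value after OR21 in each line, though near background in most. It stood at 8.88 in treated HL60 against 6.12, at 5.96 in MDSL against 3.83, at 5.58 in SKM1 against 4.9 and at 4.53 in K562 against 4.2. Only the HL60 pair lay wholly above background, where treated cells were 6.75-fold higher. The MDSL control was under its background median, which makes that difference at least 1.97-fold, and the SKM1 difference at least 1.12-fold, while both K562 values were under background and give no fold. The mean of the measured values was 1.47 ± 1.16, with an interval from 0.45 to 2.49 and an adjusted p of 0.159 by limma, and without HL60 it was 1.05 ± 0.96. PFKFB3, which makes the activator of phosphofructokinase, lay between 4.31 and 6.94 on all arrays, close to background. Its K562 difference, 2.54-fold lower as measured, is at least 1.18-fold against the background median.

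The oxidative pentose branch was mixed. PGD, which makes NADPH while forming ribulose 5-phosphate, stood at 13.41 in treated HL60 against 12.96, at 14.4 in MDSL against 13.92, at 12.74 in SKM1 against 12 and at 12.47 in K562 against 12.97. The first 3 lines were higher, by 1.37- to 1.67-fold, and K562 was 1.42-fold lower. PGLS, the lactonase before it, differed by -0.32 to 0.32.

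The non-oxidative branch was lower at TKT and split at RPIA. TKT, the transketolase that links the branch back to glycolysis, stood at 14.71 in treated HL60 against 15.14, at 12.66 in MDSL against 13.44, at 13.72 in SKM1 against 14.35 and at 12.77 in K562 against 13.41. The differences lay close together, at a mean of -0.62 ± 0.14 with an adjusted p of 0.148 by limma. RPIA stood at 7.06 in treated HL60 against 10.05, at 9.38 in MDSL against 8.02, at 8.94 in SKM1 against 10.13 and at 8.82 in K562 against 10.19. It was 7.96-, 2.28- and 2.59-fold lower in HL60, SKM1 and K562 and 2.58-fold higher in MDSL, the line with the lowest control. Its mean was -1.05 ± 1.80, and -0.40 ± 1.53 without HL60. TALDO1 differed by -0.44 to 0.16.

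**Figure D3:**
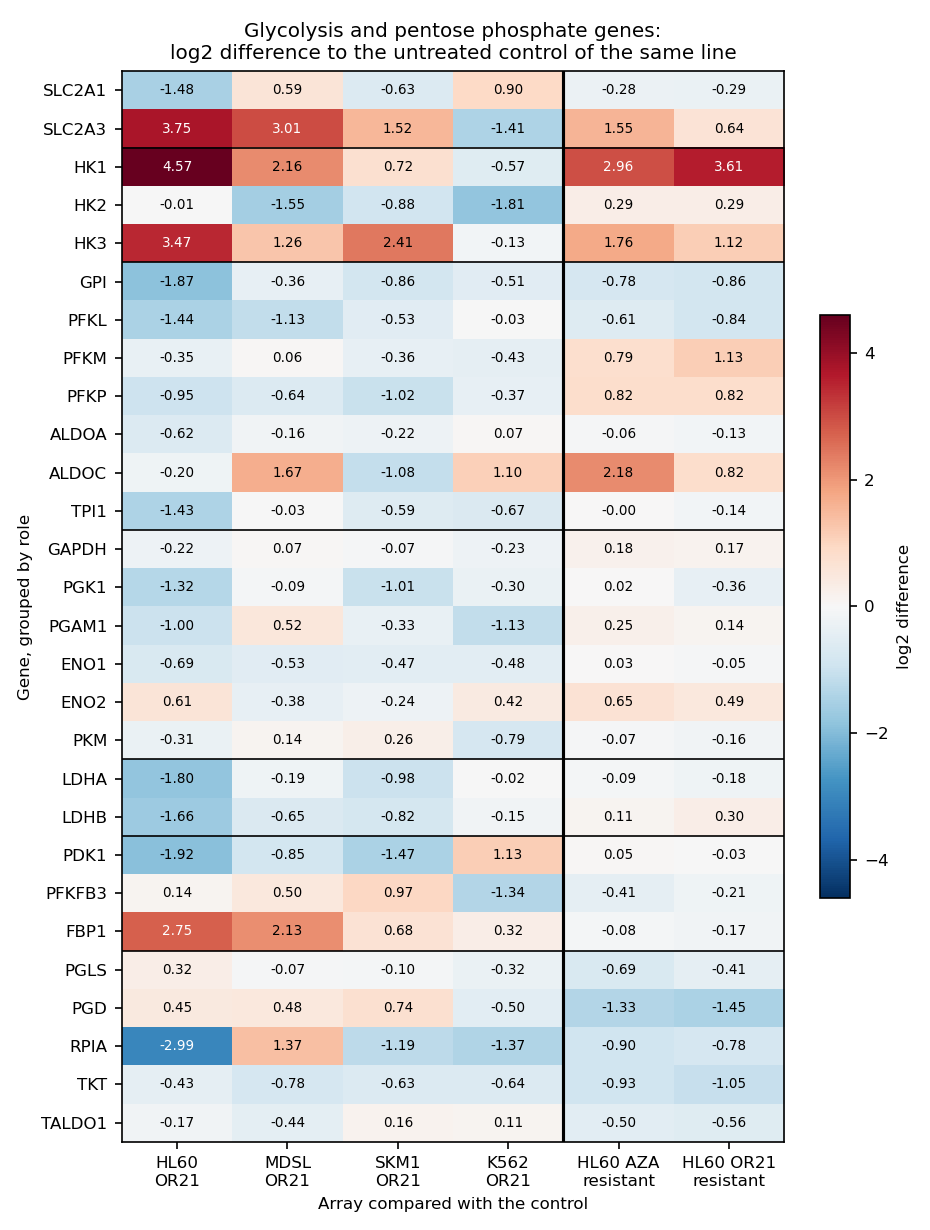
Log2 difference to the untreated control of the same line, by gene (rows, in order of role) and array (columns), red for higher and blue for lower; the 2 columns right of the thick line are the resistant derivatives, which share the HL60 control with the first column. HL60 holds the widest values, from -2.99 for RPIA to 4.57 for HK1, and the 5 pentose phosphate genes at the bottom are lower in both derivatives.

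Counted at a 2-fold difference, HL60 had 9 members lower, against 11.1% of all genes, and 4 higher, against 10.2%. The 9 were GPI, PFKL, TPI1, PGK1, LDHA, LDHB, SLC2A1, PDK1 and RPIA, which is 32.1% of the 28. The 4 higher, HK1, HK3, SLC2A3 and FBP1, were 14.3%. With the arrays scaled to the hybridisation spikes, 16 members were at least 2-fold lower in HL60, since this scaling took the median gene down by 0.81.

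In MDSL, 6 members were at least 2-fold higher, HK1, HK3, ALDOC, SLC2A3, RPIA and FBP1, against 6.62% of all genes, with FBP1 counted on its value under background. HK2 and PFKL were at least 2-fold lower, against 4.88%. Proliferation markers were lower in MDSL, 6 of 6 by at least 2-fold, and in SKM1, 6 of 6 with 2 by at least 2-fold, and their part in the members' differences was not tested. In SKM1, HK3 and SLC2A3 were at least 2-fold higher, against 7.1% of all genes, and PFKP, ALDOC, PGK1, PDK1 and RPIA were lower, against 4.47%. In K562, ALDOC and PDK1 were higher, against 5.05%, and HK2, PGAM1, SLC2A3, PFKFB3 and RPIA were lower, against 3.86%. PFKFB3 was counted there on a treated value under background, and its difference is at least 1.18-fold. The shares of all genes include dim genes, and 27 of the 28 members were above background on at least 1 array.

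The lines at 500 nM, HL60 and K562, were set against those at 100 nM, MDSL and SKM1. By limma's interaction test 0 of 28 members passed, as did 0% of all genes. At an unadjusted p under 0.05 there was 1 member, PGAM1, against 968 genes or 5.47%. PGAM1 differed by -1.0 in HL60 and -1.13 in K562 and by 0.52 in MDSL and -0.33 in SKM1, so the lines at the higher dose were lower, by 1.16 (95% interval of the difference from -2.24 to -0.07, adjusted p 0.877 by limma). For the other members the interval was wide: that of HK1 ran from -3.64 to 4.76 and that of ENO1, a narrow one, from -0.96 to 0.79. Dose, disease and line cannot be told apart in this comparison.

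The resistant HL60 derivatives were compared with the parental HL60 control, 1 array each and with no replicate check. Both comparisons share the parental array. In the AZA resistant line 4 members were at least 2-fold higher, HK1, HK3, ALDOC and SLC2A3, against 7.04% of all genes, and PGD was lower, against 5.11%. In the OR21 resistant line HK1, HK3 and PFKM were higher, against 7.69%, and PGD and TKT were lower, against 4.27%. The median member stood at 0.01 and -0.13, and the median gene at -0.02 and -0.07.

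HK1 was higher in both derivatives, at 9.19 in the AZA resistant and 9.85 in the OR21 resistant line against 6.24 in the parental control. These are 7.77- and 12.2-fold differences, against 23.7-fold in OR21-treated parental cells. HK3 stood at 7.56 and 6.92 against a parental 5.8 that lay near background, or 3.39- and 2.17-fold higher. SLC2A3 stood at 12.52 and 11.6 against 10.97, of which the first is a 2.94-fold difference. FBP1 was at the parental level in both, 6.04 and 5.95 against 6.12, although it had been higher in treated parental cells. Myelomonocytic markers were also higher in the derivatives, with medians of 1.30 and 2.06 over 16 genes, and primary granule markers lower, with medians of -2.52 and -2.59 over 7. Their part in the values of HK1, HK3 and SLC2A3 was not tested.

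From GAPDH to the lactate dehydrogenases, glycolytic enzymes mostly stayed near the parental values, while several members upstream of GAPDH did not. The 6 measured genes from GAPDH to PKM lay between -0.07 and 0.65 in the AZA resistant line and between -0.36 and 0.49 in the OR21 resistant line, with the dim ENO2 at the upper end of both. LDHA and LDHB were within 0.30 of the parental values. PFKM stood at 9.1 and 9.45 against 8.31 and PFKP 0.82 higher in both, while PFKL was 0.61 and 0.84 lower and GPI 0.78 and 0.86 lower. Isoforms of phosphofructokinase thus lay on both sides of the parental level. ALDOC stood at 11.4 in the AZA resistant line and 10.03 in the OR21 resistant line against 9.21.

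The pentose phosphate genes were all lower in both derivatives, 5 of 5, with medians of -0.90 in the AZA resistant and -0.78 in the OR21 resistant line. Of all 17687 genes, 9106 and 9848 were lower in these lines. PGD stood at 11.63 and 11.51 against 12.96, or 2.52- and 2.72-fold lower. TKT stood at 14.22 and 14.1 against 15.14, or 1.9- and 2.06-fold lower. RPIA stood at 9.15 and 9.27 against 10.05, and PGLS and TALDO1 were lower by 0.41 to 0.69. PGD was higher, not lower, in parental HL60 treated with OR21. Because the parental array is shared, a deviation of that 1 array would move all of these values the same way.

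Against each other the derivatives differed little. No member was at least 2-fold higher in the OR21 resistant than in the AZA resistant line, against 0.678% of all genes. ALDOC alone was lower, 2.58-fold, against 0.888%. The members' differences lay between -1.37 and 0.65. The 5 pentose phosphate genes differed by -0.12 to 0.28 between the derivatives.

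**Figure D4:**
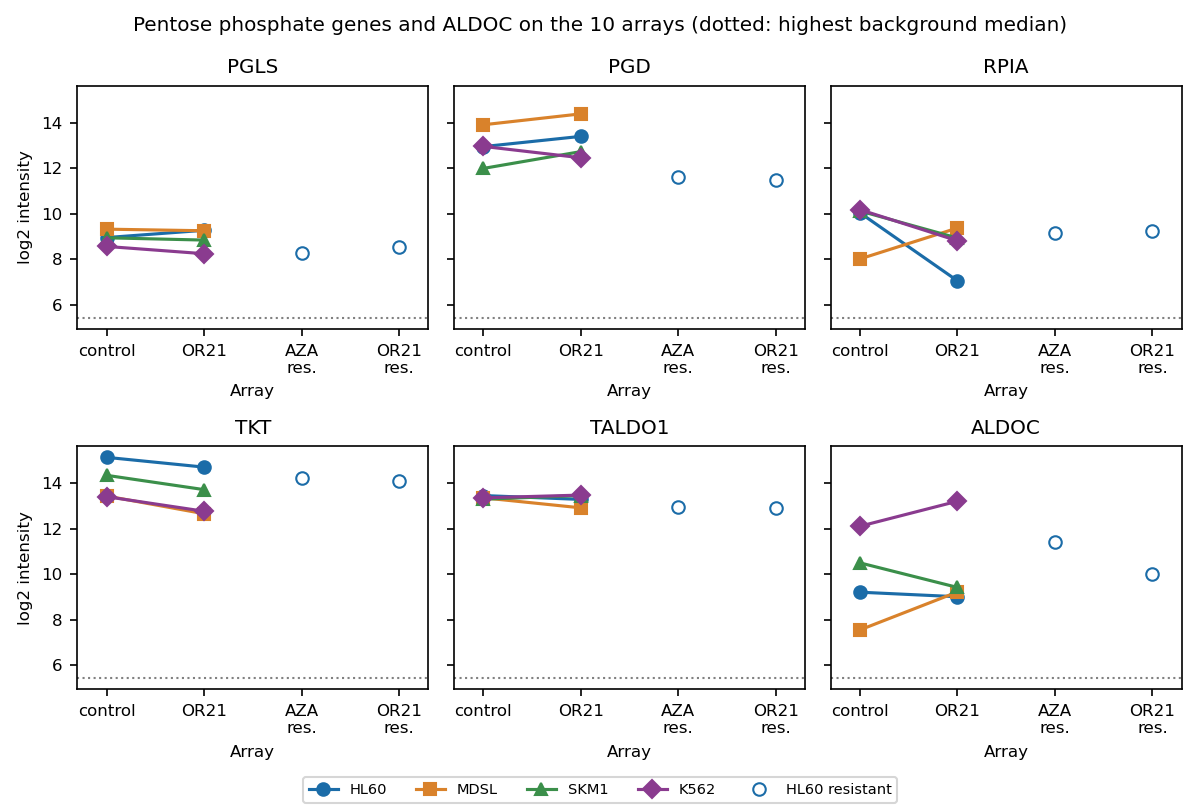
Log2 intensity of the 5 pentose phosphate genes and ALDOC in untreated and OR21-treated cells of each line, joined by a line, and in the resistant HL60 derivatives (open circles), with the highest background median dotted. PGD and TKT lie lower in both derivatives than in the HL60 control, RPIA is lower after OR21 in HL60, SKM1 and K562 and higher in MDSL, and ALDOC is highest in K562.

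Other genes of the same pathways gave no call either: 0 of 25 measured passed an adjusted p of 0.05 by limma, and their medians were -0.19, -0.21, -0.08 and 0.06 in HL60, MDSL, SKM1 and K562. TKTL1, a transketolase-like gene, had the largest mean among them. It stood at 15.36 in treated HL60 against 10.79, at 12.08 in MDSL against 12.11, at 13.57 in SKM1 against 11.55 and at 15.97 in K562 against 11.29. It was thus more than 2-fold higher in 3 lines and level in MDSL, unlike TKT, which was lower in all 4 (mean 2.81 ± 2.25, adjusted p 0.152 by limma). PFKFB2, a relative of PFKFB3, was higher in all 4 lines, by 0.56 to 1.48, and PRPS2, which activates ribose 5-phosphate for nucleotide synthesis, was lower in all 4, by 0.36 to 1.5. TIGAR, a phosphatase that favours the pentose branch, differed by 1.32 in HL60 and 0.03 to 0.48 in the others, and was 1.80 and 1.95 higher in the AZA and OR21 resistant lines.

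The genes around pyruvate dehydrogenase, 10 measured, also gave 0 calls. PDK2, a kinase of the same family as PDK1, was higher in all 4 lines, by 2.43, 0.68, 1.11 and 1.05, and in both derivatives, by 1.92 and 2.17. The subunits DLAT and PDHA1 were lower in all 4 lines, at means of -1.16 ± 0.60 and -1.08 ± 0.67. PDK1 and PDK2 thus differed in opposite directions in HL60, MDSL and SKM1.

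Of 26 measured regulators of glycolytic transcription 0 passed. MYC stood at 10.54 in treated HL60 against 15.17, at 11.51 in MDSL against 13.99, at 11.94 in SKM1 against 14.41 and at 12.83 in K562 against 13.59. It was lower in every line, least in K562, at a mean of -2.58 ± 1.58 and an adjusted p of 0.122 by limma. It was 1.02 and 1.13 lower in the AZA and OR21 resistant derivatives. TXNIP, which restrains glucose uptake, was higher by 2.91, 0.87, 0.19 and 1.60 in HL60, MDSL, SKM1 and K562, and HIF1A by 1.01, 0.72, 1.10 and 0.34. The part of these regulators in the members' values was not tested.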

How the data were processed

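RNA was measured on 10 arrays, 1 per condition and line, and their number limits the precision. The authors deposited 1 linear intensity per probe set and array; how they corrected and normalized it is not given in the sources used here. Since array quartiles were alike, values were used as normalized and taken to log2 without a pseudocount. Symbols came from the platform annotation, which named 17709 probe sets with 1 symbol each and 0 with several and did not list 6642 of 24351 rows. The brightest probe set stood for a gene, and 0 columns belonged to no sample.

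limma 3.58.1 in R 4.3.3 fitted the 8 treated and control arrays with the line as block, since treated and control cells are of 1 line, and tested 2-sided with Benjamini-Hochberg adjustment over 17687 genes at 0.05, and dose class as an interaction. Prior degrees of freedom were 3.49 and residual 3. The fits were tested on simulated data. Single comparisons had 1 array each and were counted at 2-fold. A value at or under the median of 23 background probe sets was treated as a bound.

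Members, lists and tests were chosen with earlier results of these data known. Members described by array were the 8 with the largest mean differences, those 2-fold different in at least 2 lines or in a derivative, and the 6 with the widest control range. Companion genes were the 4 largest per list and MYC, HIF1A, TXNIP and TIGAR. Alternatives were quantile normalization, median centring, log2(value + 32), leaving out genes under the 30th percentile, the mean of probe sets, no line block, each line left out and 1.5-fold. Scaling to hybridisation spikes and a floor at background were added after the data were seen.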

Additional observations from a re-analysis of the deposited data

Results flagged for a closer look

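Within groups of 4 lines, 7 of 84 values tested among the members stood far from the other 3, where chance alone gives about 1 in 20. The untreated MDSL array was low for LDHA, at 14.54 log2 against 16.49 to 16.73, for ENO1, at 16.73 against 17.18 to 17.25, and for RPIA, at 8.02 against 10.05 to 10.19. The treated K562 array was high for ALDOC, at 13.21 against 9.01 to 9.42, and low for PGAM1, at 13.18 against 14.12 to 14.16, and for PKM, at 12.53 against 15.03 to 15.27. The OR21 difference of PFKM in MDSL was 0.06, against -0.43 to -0.35 in the other lines.

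Lines also differed by at least 2-fold in opposite directions for 4 members, and these differences between lines were not tested, because each line has 1 pair of arrays. ALDOC differed by -1.08 in SKM1 and 1.67 in MDSL. SLC2A3 differed by -1.41 in K562 and 3.75 in HL60. PDK1 differed by -1.92 in HL60 and 1.13 in K562. RPIA differed by -2.99 in HL60 and 1.37 in MDSL.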

How the results depend on the processing

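No member passed the adjusted threshold of limma under any alternative fitted, over the 4 lines or by dose class, and the lowest adjusted p of a member was 0.102, without K562. Without the replicate block, that is without the cell line as the pair, the members' adjusted p-values were 0.982 to 1.0, 0 members passed and 1 gene was called in place of 7. The genes called over all 17687 were 1 without HL60, 5 without MDSL, 0 without SKM1 and 2 without K562, and 0 with the offset of 32.

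Counts at 2-fold moved with the scale. With arrays centred on their median, SKM1 had 8 members lower in place of 5, K562 0 higher in place of 2, the AZA resistant line 3 lower in place of 1 and the OR21 resistant line 1 higher in place of 3. Scaled to the spikes, HL60 had 16 lower in place of 9 and SKM1 3 in place of 5. At 1.5-fold, 6 were lower in MDSL, 6 higher and 12 lower in SKM1, 8 lower in K562, 7 higher and 6 lower in the AZA resistant line, 6 higher and 5 lower in the OR21 resistant line, and 1 higher and 3 lower between the derivatives. With values floored at background, 0 members were higher in every line in place of 1. Leaving out each line gave 1 to 6. The other 141 counts compared lay within 1.5 times of their main value.

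Medians of the members crossed 0 in MDSL, to 0.01 with the spikes and with the floor, and in the AZA resistant line, to -0.16 centred, -0.00 without dim genes and -0.02 with the spikes. Means over lines near 0 changed sign for ENO2, to -0.02 centred, and PFKFB3, to -0.05 by quantile normalization and -0.06 centred. Leaving out each line gave ALDOC -0.06 to 0.86, ENO2 -0.07 to 0.26, PKM -0.32 to 0.03, SLC2A1 -0.50 to 0.29, PFKFB3 -0.23 to 0.54, PGLS -0.16 to 0.05 and TALDO1 -0.17 to 0.04. Among the members' differences of at least 2-fold, 0 changed sign. The cause of these shifts was not tested. Signal over background limits FBP1, ENO2, PFKFB3 and HK3.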

Other observations

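Genes of NADPH and glutathione metabolism, 15 measured, gave 0 calls by limma at an adjusted p of 0.05. GPX1, which removes peroxides with glutathione, stood at 5.05 log2 in the K562 control, under background, and at 8.93 after OR21, and at 12.99 to 13.69 in the other controls. NQO1, an antioxidant reductase, was higher by 1.98, 1.28 and 2.26 in HL60, MDSL and SKM1 and lower by 1.45 in K562, the same split by line as SLC2A3. NNT, which makes NADPH in mitochondria, was lower by 1.09, 0.90, 1.10 and 0.01. Of 25 measured hypoxia-inducible genes outside glycolysis 0 passed, with medians of 0.17, 0.14, -0.28 and 0.25 in HL60, MDSL, SKM1 and K562 and no common direction. In HL60, 7 were at least 2-fold lower, against 11.1% of all genes, and 3 higher, against 10.2%; in MDSL, 1 was lower and 5 were higher, against 4.88% and 6.62%. AK4, a mitochondrial adenylate kinase, was lower by 1.81, 0.27, 1.30 and 0.09, and by 1.77 and 1.56 in the AZA and OR21 resistant lines. GBE1, the glycogen branching enzyme, was lower by 1.64 and 2.47 in those lines, and at 10.93 log2 in the parental control.

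Among other sugar carriers, 24 measured and 0 past the threshold, SLC2A5, the fructose carrier, was lower by 2.57 in MDSL and 2.31 in SKM1 and differed by 0.06 in HL60 and -0.42 in K562. SLC37A4, which carries glucose 6-phosphate into the endoplasmic reticulum, was lower in all 4 lines at a mean of -1.04 ± 0.54 (SD, n = 4 lines, adjusted p 0.126 by limma).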
